A study of Mus musculus with 6 samples.

Results

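The subject is a set of 10 genes that mark dendritic cells, followed in whole mouse lung with and without the long noncoding RNA lincRNA-Cox2. They were chosen by symbol as genes of conventional, plasmacytoid and migratory dendritic cells: Flt3, Zbtb46, Batf3, Xcr1, Clec9a, Itgae, Cd209a, Siglech, Ccr9 and Fscn1. All 10 were found among the 20494 gene clusters of the authors' deposited table, each in 1 row. The lungs came from untreated male C57BL/6 mice of 4 months, with 3 RNA-seq libraries of wild type and 3 of lincRNA-Cox2 knockout animals. The labels do not state that each library is a separate mouse, so p-values measure the spread between these libraries. They name the knockout without saying how the locus was removed or which cells lack the RNA, and give neither litter nor batch. For each gene the table gives a mean normalized count per genotype and 1 comparison, so a group mean has no error of its own and errors come from the comparison.

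Dendritic cells take up antigen in tissues and present it to T cells in lymph nodes. Conventional dendritic cells grow under the cytokine FLT3 ligand and fall into a cross-presenting type, cDC1, and a second type, cDC2. Plasmacytoid dendritic cells make type I interferon when they sense viral nucleic acid. In the lung, cDC1 lie beside the airway epithelium and carry the integrin CD103, while migratory dendritic cells are those that have matured and are leaving for the draining node. Their RNA is a small part of that of a whole lung, and several of the genes are also used by other cells: Itgae and Ccr9 by T cells, Zbtb46 and Fscn1 by endothelial and other stromal cells.

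By position (mm10, GENCODE M21), the genes shared by conventional dendritic cells were Flt3 at chr5:147330741-147400489 and Zbtb46 at chr2:181387762-181459426. The cDC1 genes were Batf3 at chr1:191097847-191108945, Xcr1 at chr9:123852315-123862029, Clec9a at chr6:129408862-129424763 and Itgae at chr11:73090583-73147446. Cd209a, of cDC2, lay at chr8:3743397-3748984. The plasmacytoid genes were Siglech at chr7:55768178-55778925 and Ccr9 at chr9:123678439-123784330, the latter near Xcr1, and Fscn1, of migratory cells, lay at chr5:142960343-142973185.

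The group means of the authors' deposited table added up to 37118488 normalized counts for wild type and 36839329 for knockout. The targeted RNA had means of 311 and 0.666 normalized counts there, which gives the direction of the table's comparison. The lung epithelial markers were high in both groups, at a summed 279694 normalized counts in wild type and 282007 in knockout. The neutrophil markers moved with genotype: 5 of 6 with an adjusted p were called, all higher in knockout, and their summed level was 7501 against 11872 in the same table. Their part in the results on dendritic cell genes was not tested.

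None of the 10 genes passed the test between genotypes. Of the 10 members, 0 had an adjusted p under 0.05 in the authors' DESeq2 comparison, against 1.09% of all clusters tested (0.592% higher and 0.497% lower in knockout), and 3 had an unadjusted p under 0.05, against 8.47% of all. Those 3 were Fscn1 and Zbtb46, with lower means in knockout, and Xcr1, with a higher one. The knockout mean was above the wild type mean for 4 members and below it for 6, where 49.4% of all tested clusters were higher. The median log2 ratio of knockout over wild type was -0.05 over the members and -0.0013 over all tested clusters. Every member had an adjusted p, so none was lost to the authors' filter on low means. In whole-tissue RNA, fewer dendritic cells and less RNA per dendritic cell cannot be told apart.

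**Figure D1:**
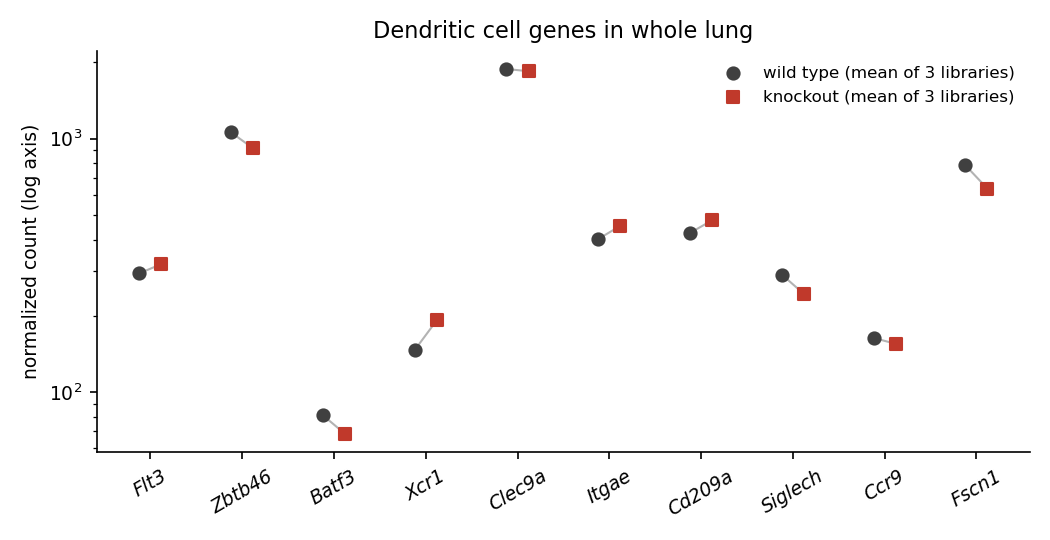
Mean normalized count of each dendritic cell gene (log axis) in wild type (circles) and knockout (squares) lung, from the authors' deposited table; a line joins the means of a gene. Each point is a mean of 3 libraries, so no error is drawn. Xcr1, Flt3, Itgae and Cd209a slope up and the other 6 slope down, with Fscn1 going from 786 to 636 and Xcr1 from 147 to 192.

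No difference was called for either gene shared by all conventional dendritic cells. Flt3, the receptor tyrosine kinase that drives dendritic cell development, had means of 294 in wild type and 320 in knockout (adjusted p = 0.962 in the authors' deposited table). Its ratio of knockout to wild type was 1.09, with an approximate 95% interval of 0.906 to 1.305; here and below, the interval comes from the standard error of the log2 ratio that the authors' Wald statistic implies. Zbtb46, a zinc finger repressor that sets conventional dendritic cells apart from other myeloid cells, had means of 1058 and 916 (adjusted p = 0.532 in the same table), a ratio of 0.865 with an interval of 0.756 to 0.991. Zbtb46 is also an endothelial gene. Of 9 endothelial markers 8 had a lower mean in knockout, where 49.4% of all tested clusters had a higher one. None was called and 2 had an unadjusted p under 0.05, against 8.47% of all. Their log2 ratios ran from -0.21 to 0.01, with a median of -0.08. The part of endothelial cells in the Zbtb46 row was not tested. Flt3l, the ligand of Flt3, had means of 1157 and 1084 (adjusted p = 0.926 in the authors' deposited table). For neither the receptor nor its ligand was a difference called.

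Among the cDC1 genes, Batf3 is the one whose single libraries could be read from the table. Batf3 is a basic leucine zipper factor required for cDC1 development, and it lies on chromosome 1, 41.0 Mb from Ptgs2, the coding gene beside lincRNA-Cox2. Its group means could be split into whole reads: 86, 86 and 70 reads in the wild type libraries and 72, 70 and 65 in the knockout libraries. As normalized counts the wild type libraries had 84.7, 85.4 and 72.8, a mean of 81.0 ± 7.07 (SD, n = 3), and the knockout libraries 70.2, 68.6 and 66.5, a mean of 68.4 ± 1.87 (SD, n = 3). Every knockout library thus lay below every wild type library, the nearest being 70.2 and 72.8. An exact two-sided permutation test gave p = 0.1, the smallest that 3 against 3 allows. By the authors' deposited table the unadjusted p was 0.287 and the adjusted p 0.927. The groups of Rag1, given below, lay apart too, with the knockout libraries higher, while those of the other genes given this test overlapped. For a gene without any difference, 3 against 3 libraries lie apart with a probability of about 0.1. How many of all genes with derived libraries lie apart was not counted, so the gap is not read as a difference. Batf3 was the member with the fewest reads, and its ratio of 0.845 had an interval of 0.620 to 1.15. Irf8, the partner factor of Batf3 in cDC1, had means of 2635 and 2406 (adjusted p = 0.757 in the same table).

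Xcr1 showed the largest ratio of the 10 members. It encodes the chemokine receptor by which cDC1 find cells that make XCL1. Its means were 147 in wild type and 192 in knockout in the authors' deposited table, with a shrunken log2 fold change of 0.19 ± 0.085 (SE), an unadjusted p of 0.0249 and an adjusted p of 0.458. The ratio of 1.31 had an interval of 1.04 to 1.66. The annotated Xcr1 gene lies 415 bases from Fyco1, which had means of 6048 and 6541 in the same table. Of the 50-base words of the longest Xcr1 transcript, 1.63% also occur in transcripts of other genes. How much of the Xcr1 row came from other genes was not tested. Xcl1, the ligand, is made by natural killer and T cells. Its libraries had 28, 13 and 24 reads in wild type and 15, 35 and 34 in knockout, or 21.8 ± 7.82 and 27.9 ± 11.5 normalized counts (SD, n = 3 each). The 2 genotypes overlapped for Xcl1, each having 1 library well below its other two (exact permutation p = 0.5). The sequence before the Xcr1 start is shown because it belongs to the member with the highest ratio (RefSeq, GRCm38.p6, minus strand, chr9:123862030-123862279, 250 bases up to the start, 5′ to 3′):
Xcr1: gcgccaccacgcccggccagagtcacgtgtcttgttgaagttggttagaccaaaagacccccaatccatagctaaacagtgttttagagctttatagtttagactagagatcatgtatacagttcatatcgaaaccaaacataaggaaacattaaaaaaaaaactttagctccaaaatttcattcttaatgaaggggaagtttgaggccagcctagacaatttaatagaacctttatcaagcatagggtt
It held none of the 3 motifs searched, which says that these letters are not in this window: TGANTCA, the site bound by basic leucine zipper factors such as Batf3, TGACGTCA, the cAMP response element, and the composite site of ETS and interferon regulatory factors. They were searched on both strands and occurred in 6.75%, 1.55% and 2.30% of 32851 RefSeq windows of the same length.

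Clec9a, the C-type lectin by which cDC1 recognise dead cells, had the highest level of the set and the narrowest interval. Its means were 1884 and 1846 (adjusted p = 0.997 in the authors' deposited table), a ratio of 0.980 with an interval of 0.876 to 1.09. Its row should be read with its neighbours. The annotated 3′ end of Clec9a lies 8 bases from that of Clec1a, an endothelial C-type lectin gene on the other strand, which had means of 7594 and 7621 in the same table. The library kit named in the labels is not a stranded one, and at the other end Clec1b, a platelet gene, overlaps the Clec9a transcript, so that 4.19% of its 50-base words also occur in Clec1b. How much of the Clec9a row came from these neighbours was not tested. Per kb of transcript, the wild type level of Clec9a was 572 normalized counts and that of Xcr1, another cDC1 gene, 32.9.

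Itgae encodes CD103, the integrin chain that with the beta 7 chain binds E-cadherin on epithelium. The authors' deposited table lists it at 402 and 453 (adjusted p = 0.844), a ratio of 1.13 with an interval of 0.953 to 1.33. Its partner chain Itgb7 had means of 1959 and 1800 (adjusted p = 0.869) and Cdh1, which encodes E-cadherin, 15938 and 16927 (adjusted p = 0.914) in the same table. Haspin, a kinase gene within an Itgae intron on the other strand, had its own row, at 108 and 103. Of 14 T cell markers, which bear on Itgae since resident T cells carry it, 5 had a higher and 9 a lower mean in knockout and 0 were called, with 1 at an unadjusted p under 0.05. Cd207, encoding langerin, is found on CD103 cells of the lung. Its libraries had 60.1, 50.7 and 74.9 normalized counts in wild type and 76.1, 79.3 and 61.4 in knockout, so the genotypes overlapped (exact permutation p = 0.2).

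Cd209a, a DC-SIGN homologue of cDC2 and of monocyte-derived dendritic cells, had means of 425 and 476 (adjusted p = 0.972 in the authors' deposited table). The ratio of 1.12 had a wide interval, from 0.858 to 1.47. The related genes Cd209b to Cd209g stood in rows of their own, with wild type means from 10.1 for Cd209e, which had no adjusted p, to 212 for Cd209f, and none of the others was called. No 50-base word of the longest Cd209a transcript occurred in another gene's transcripts, so reads of that length without mismatch can be told from those of its relatives. The libraries of Cd209c, a relative, had 64.0, 32.8 and 58.3 normalized counts in wild type and 38.0, 37.2 and 44.0 in knockout. Those of Cd209d had 70.9, 45.7 and 62.4 against 52.7, 58.8 and 34.8. In both the genotypes overlapped, and the wild type libraries of Cd209c spanned the whole range. Irf4, the factor needed for cDC2, had means of 485 and 490 (adjusted p = 0.997 in the authors' deposited table).

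**Figure D2:**
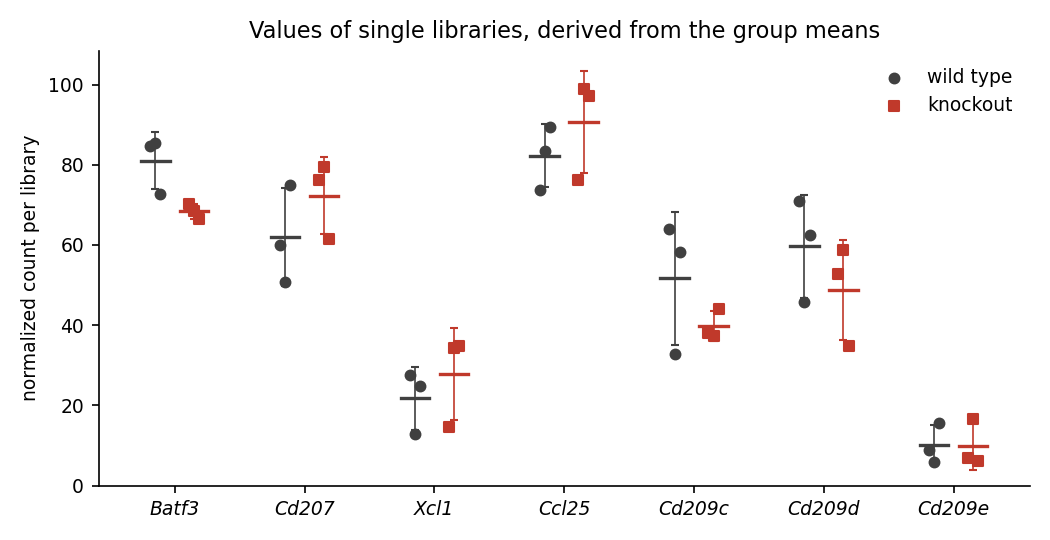
Normalized count in each library, derived from the group means, for Batf3 and for related genes low enough to be split: Cd207, the ligand genes Xcl1 and Ccl25, and 3 relatives of Cd209a. Circles are wild type and squares knockout libraries (3 each); the short line is the mean and the bar 1 SD. The groups are apart for Batf3 (66.5 to 70.2 against 72.8 to 85.4) and overlap for the other 6 genes drawn. Rag1, not drawn, was also apart, and the share of all genes that are was not counted.

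The plasmacytoid genes both had lower means in knockout, within error. Siglech, a sialic acid-binding lectin that restrains interferon release through the adaptor DAP12, had means of 291 and 244 (adjusted p = 0.821 in the authors' deposited table). Its ratio was 0.839 with an interval of 0.663 to 1.06. Ccr9, a chemokine receptor of plasmacytoid cells that also guides T cells and thymocytes, had means of 164 and 155 (adjusted p = 0.997 in that table), a ratio of 0.949 with an interval of 0.732 to 1.23. Ccl25, the ligand of Ccr9, had 73.8, 83.5 and 89.5 normalized counts in the wild type libraries and 76.1, 98.9 and 97.2 in the knockout libraries, which overlapped. Tyrobp, the gene of DAP12, had means of 3023 and 3263 (adjusted p = 0.850), and Tcf4, the factor that commits cells to the plasmacytoid type, 8064 and 8111 (adjusted p = 0.997), in the same table. The Tcf4 means lay far above those of Siglech, and how much of them came from plasmacytoid cells was not tested. Thymocytes carry Ccr9, so their genes were counted too. Ptcra, the pre-T cell receptor gene, had 2 reads over the wild type libraries and 4 over the knockout libraries. Rag1 had 4 reads in each wild type library and 9, 5 and 8 in the knockout libraries, which did not overlap (exact permutation p = 0.1, the smallest possible). As for Batf3, such a gap has a probability of about 0.1 without any difference, and the share of all genes that lie apart was not counted. Dntt, the terminal transferase gene, had 20, 15 and 28 reads in the wild type libraries and 21, 14 and 16 in the knockout libraries, which overlapped (exact permutation p = 0.5). Few reads of Ptcra and Rag1 and more of Dntt were thus present in both genotypes, and the part of thymocytes in the Ccr9 row was not tested. Of the 6 thymocyte markers with an adjusted p 0 were called and 2 had an unadjusted p under 0.05, both lower.

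Fscn1 came nearest to the threshold. It encodes fascin, which bundles actin in the long protrusions of mature, migrating dendritic cells. Its means were 786 in wild type and 636 in knockout, with a shrunken log2 fold change of -0.24 ± 0.072 (SE), an unadjusted p of 0.00104 and an adjusted p of 0.0721 in the authors' deposited table. The ratio of 0.809 had an interval of 0.712 to 0.918. By unadjusted p it ranked 243 of 20477 clusters, and it would be called at an adjusted p under 0.1, as 1.77% of tested clusters were. Ccr7, the receptor that leads mature dendritic cells to lymph nodes, had a mean of 868 in knockout against 1035 (unadjusted p = 0.0202, adjusted p = 0.410 in the same table). The 25 further migratory genes, Ccr7 among them, did not move together: 13 had a higher and 12 a lower mean in knockout, with a median log2 ratio of 0.01. Actb, the beta-actin gene, lies 53588 bases from Fscn1 and had means of 44287 and 41734 (adjusted p = 0.877 there). The sequence before the Fscn1 start is shown because it belongs to the member with the smallest p. A cAMP response element, TGACGTCA, stands in capitals and begins 45 bases before the start (RefSeq, GRCm38.p6, plus strand, chr5:142960105-142960354, 250 bases up to the start, 5′ to 3′):
Fscn1: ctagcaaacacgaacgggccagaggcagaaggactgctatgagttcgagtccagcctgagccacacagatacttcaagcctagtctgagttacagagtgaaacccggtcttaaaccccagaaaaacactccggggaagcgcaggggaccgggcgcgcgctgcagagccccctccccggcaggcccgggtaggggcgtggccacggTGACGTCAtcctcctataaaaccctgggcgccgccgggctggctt
Fscn1 was the 1 member of the 9 with a RefSeq window that held this motif, and none held the composite of ETS and interferon regulatory factors. The motif TGANTCA occurred in the window of 1 member, Zbtb46, but that window lies 35038 bases inside the gene as GENCODE M21 annotates it and is not shown. The windows of Ccr9 and Batf3, which held none of the motifs, end 88772 and 567 bases inside their genes by the same annotation.

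The size of difference that could have been called differed between members. The smallest absolute Wald statistic among called genes was 3.48. At each member's own error this corresponds to a fold of 1.22 for Clec9a, 1.25 for Fscn1 and 1.27 for Zbtb46, the members with the smallest errors. For Xcr1 and Siglech it was 1.52, and for Batf3, at the lowest count, 1.73. The interval held a ratio of 1 for 7 members. The interval of Clec9a ended at 1.09, while that of Cd209a reached 1.47.

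**Figure D3:**
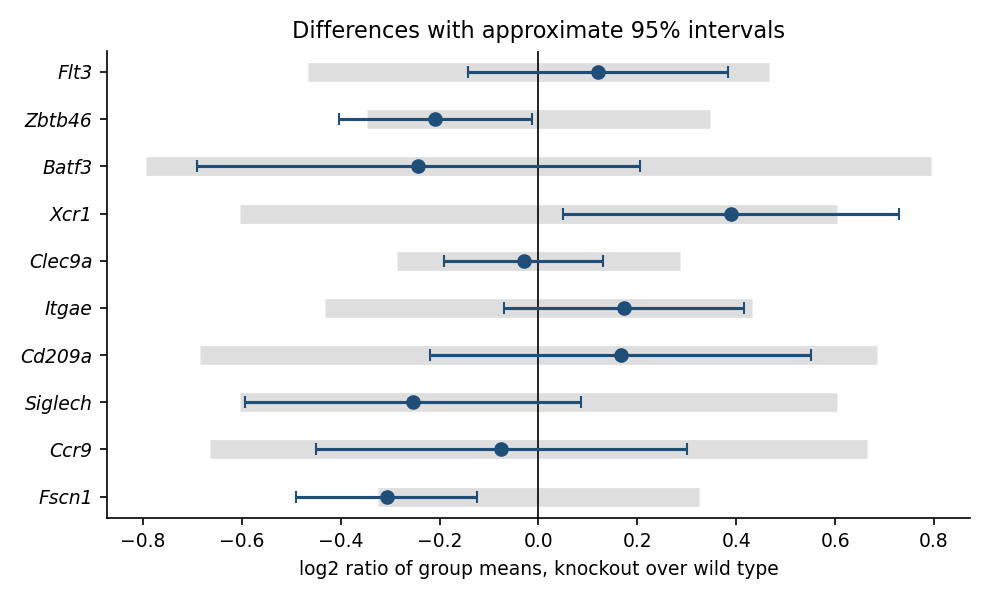
Log2 ratio of the group means, knockout over wild type, for each dendritic cell gene (points) with an approximate 95% interval from the error of the comparison (bars). The grey band is the range of ratios that would not have been called at that gene's error. All 10 points lie inside their bands, Fscn1 (-0.31) at the edge of its own, and the intervals of Fscn1, Zbtb46 and Xcr1 leave out 0.

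Compared per length, Clec9a had the highest and Ccr9 the lowest level in wild type lung. These levels take each row as it stands, also for Clec9a with its neighbours Clec1a and Clec1b. The annotated Ccr9 gene overlaps Slc6a20a and Lztfl1, whose part in its row was not tested. Per kb of the longest annotated transcript, the wild type levels were 572 normalized counts for Clec9a, 294 for Fscn1, 287 for Cd209a and 199 for Zbtb46. Siglech had 127, Itgae 105, Flt3 74.5, Batf3 73.0, Xcr1 32.9 and Ccr9 31.5. Fscn1 and Cd209a, Siglech and Itgae, and Flt3 and Batf3 changed places when the merged length of all annotated exons was used, so the order within each of these pairs is not fixed. In knockout Cd209a (321 per kb) stood above Fscn1 (238 per kb), and Itgae (118) above Siglech (106). The spread between libraries behind these levels is not in the table, so neighbours in the order were not compared by a test.

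Further genes of each dendritic cell type were followed in lists of their own, together 105 genes or list entries with an adjusted p, of which 1 was called. Over all tested clusters 1.09% were called and 8.47% had an unadjusted p under 0.05, shares that apply beside each count here. The cDC1 list had 0 of 19 called, 11 higher and 8 lower, with a median log2 ratio of 0.04. The 2 genes at an unadjusted p under 0.05 were Nfil3, a factor upstream in dendritic cell development (418 and 301, adjusted p = 0.0555), and Ly75, the endocytic receptor DEC-205 (926 and 1166, adjusted p = 0.0833), both as the authors' deposited table lists them. The cDC2 list had 0 of 17 tested genes called, 7 higher and 10 lower, with a median of -0.01. Its smallest p belonged to Klf4, a factor of cDC2 that many other lung cells express (9012 and 7174, adjusted p = 0.0766 in the same table), followed by Cd1d1, the lipid antigen-presenting molecule (821 and 718, adjusted p = 0.465). In all, 3 of the 17 had an unadjusted p under 0.05.

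Plasmacytoid genes had 0 of 21 called, 9 higher and 12 lower, a median of -0.02, and 7 at an unadjusted p under 0.05, of which 5 had a lower mean in knockout, where 8.47% of all clusters had such a p. The smallest p among them belonged to 2 genes with higher means, Tlr7, the sensor of single-stranded RNA (637 and 791, adjusted p = 0.187), and Ly6c2, which monocytes also carry (738 and 908, adjusted p = 0.2999), both from the authors' deposited table. The 5 with lower means were Ly6d (817 and 695), Pltp (17899 and 16136), Pacsin1 (110 and 79.1), Spib (977 and 847) and Bst2 (3199 and 2882). Wild type means in this list reached 21059 for Ptprf and 17899 for Pltp. The part of plasmacytoid cells in such rows was not tested. Of 25 genes of migratory dendritic cells, 13 had a higher and 12 a lower mean, with a median of 0.01, and 5 had an unadjusted p under 0.05. The called gene was Cd200, which endothelial cells and other cells also express, with 8640 and 5516 normalized counts (adjusted p = 8.91e-06 in the same table). Cd86, the costimulatory ligand, followed with 278 and 348 (adjusted p = 0.225), and Apol7c, an apolipoprotein L gene of activated dendritic cells, with 77.6 and 120 (adjusted p = 0.404), in that table. Cd83, an activation marker, had 1158 and 918 (unadjusted p = 0.0233, adjusted p = 0.443 in the same table), and Ccr7 is given above. Among 23 tested ligands, partners and relatives 0 were called, 11 higher and 12 lower, and 3 had an unadjusted p under 0.05, all with lower means. The 2 smallest p belonged to Myo10, an unconventional myosin of filopodia (8161 and 7111, adjusted p = 0.168), and Junb, a partner of BATF factors (14397 and 8126, adjusted p = 0.255), in the authors' deposited table.

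Markers of other lung cells that could hold these transcripts were measured beside them. Of 9 B cell markers all had a lower mean in knockout and 0 were called (4 at an unadjusted p under 0.05), with a summed level of 10838 against 9795 normalized counts. Alveolar macrophage markers, 8 of 11 higher and 0 called (2 at an unadjusted p under 0.05), summed to 37898 and 40052. Of 9 monocyte markers 4 had a higher and 5 a lower mean in knockout, 1 was called (Nr4a1, lower), and 4 had an unadjusted p under 0.05, 2 in each direction, in the authors' deposited table. The 2 lower ones were Nr4a1 (14598 and 4408) and Ace (44059 and 39595), with means far above those of Treml4 (410 and 408) in the same list. How much of such rows came from monocytes was not tested. Natural killer markers, 5 of 8 higher with 0 called and 0 at an unadjusted p under 0.05, summed to 2817 and 2909. None of the found markers had a mean of 0 in either genotype. The part of these cells in the values of the dendritic cell genes was not tested.

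**Figure D4:**
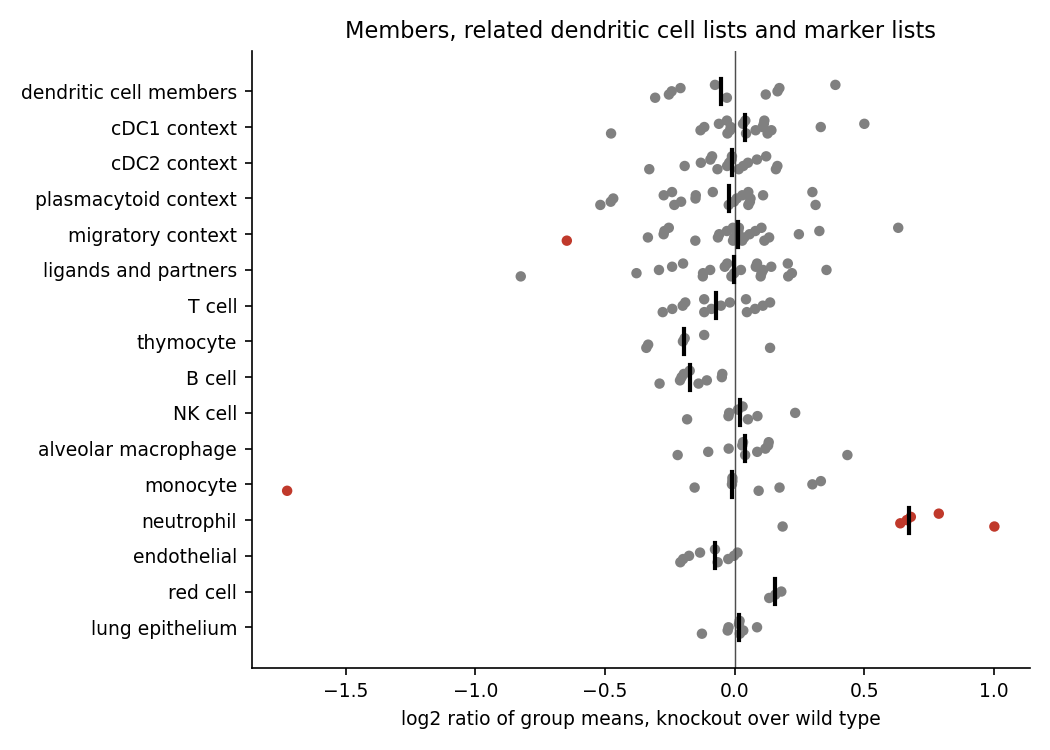
Log2 ratio of group means, knockout over wild type, for each tested gene (points) of the 10 members, the 5 related lists and 10 marker lists; red points are called (adjusted p under 0.05) and black bars are list medians. The members scatter around 0 between -0.31 and 0.39 with no called gene, while 5 neutrophil markers lie to the right as called genes.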

How the data were processed

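Total RNA of whole lung (500 ng per library, RNA integrity from 9.0 to 10.0) was made into TruSeq v2 libraries and read as 50-base pairs, per the labels' protocols. Tools listed without role or order are STAR 2.5.1b, DESeq2, bedtools, Bowtie2 and SAMtools, with build mm10, per the submitters' processing notes; the counting rule is not given in the sources used here. The deposited group means are a signal, gene counts divided by size factors, per the file headers. The deposited log2 fold change is the authors' shrunken estimate, with its standard error, and the Wald score, p-value and adjusted p-value are the authors' too, per the file headers.

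Counts of single libraries were not at hand, so no count model was fitted and the design for a table of the authors' comparison applied. The exact permutation tests used the normalized counts derived for single libraries. They were added to a plan that foresaw these libraries as a description only. Genes were called at an adjusted p under 0.05, over all genes. The log2 ratio of the group means was divided by the Wald statistic to obtain its standard error. Put through the shrinkage, this gave the deposited standard errors within a median 0.0829% at 11736 genes. Reads per library came from writing a group mean as whole reads times 3 fixed values. Of means over 0 and at most 40, all 4901 of wild type and all 4877 of knockout had exactly 1 solution. Above that, a solution was kept where it was the single one with a coefficient of variation of at most 0.5; on simulated means from 60 to 85, drawn with the wild type library sizes, 299 of 300 had such a solution and all 299 were right. From 85 to 110, where the knockout mean of Ccl25 falls, 152 of 216 had one and all 152 were right. All simulated reads had the same fixed dispersion, and the knockout library sizes were not simulated. The simulation therefore does not cover the knockout splits or genes that vary more between libraries. For Batf3, the other solutions had coefficients of variation of at least 93.1%. Libraries so derived carry no replicate number. Intervals on ratios rest on the comparison's error.

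Levels per kb and positions used GENCODE M21 (mm10), and promoter windows were RefSeq's (GRCm38.p6), found for 9 of 10 members. Alternatives covered the threshold, the fold change, a pseudocount of 1, a filter at a mean of 50, membership and single libraries. The text names all members, their direct ligands and partners, and in each related list up to 4 called genes and up to 2 more with the smallest p. In the plasmacytoid and migratory lists the other genes at an unadjusted p under 0.05 are named too. In lists of other cell types genes are mostly given as counts. Python 3.11.15 with scipy 1.17.1 was used. The members and lists were chosen with earlier results of these data known.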

Additional observations from a re-analysis of the deposited data

How the results depend on the processing

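The count of called members was 0 at an adjusted p under 0.05, 1 (Fscn1) at an adjusted p under 0.1 and 3 at an unadjusted p under 0.05. The order of levels with merged exons was an alternative chosen after seeing the data. The median log2 ratio over the members was -0.05 and had the other sign, 0.05, without Itgae, Ccr9, Fscn1 and Zbtb46, which other cells also express; 3 of those 6 members were higher in knockout. All 26 alternatives for single members kept the sign of the log2 ratio. Shrinkage and a pseudocount of 1 added to both means cannot reverse a sign, so this is no check of direction. For Batf3, leaving out each library gave -0.31 to -0.20, where the sign could not change either because its groups do not overlap. For the other members, reads of single libraries were not unique and leaving one out was not run. DESeq2 and edgeR refits were not run, for want of counts per library. No paired analysis was possible because the table gives group means and the labels give the libraries no shared numbers. Depth limits Batf3 most, at 242 and 207 reads over 3 libraries each.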

Other observations

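Xcr1 and Ccr9 lie in one stretch of chromosome 9 that also holds other chemokine receptor genes, so the coding genes from 400 kb before Ccr9 to 400 kb after Xcr1 were looked at after the values of Xcr1 had been seen. Of 14 tested genes in this stretch, 13 had a higher mean in knockout and 1, Ccr9, a lower one, with a median log2 ratio of 0.22; over all tested clusters 49.4% were higher. The count includes Xcr1, whose value led to the choice of the stretch. An unadjusted p under 0.05 was given to 6 of them in the authors' deposited table, against 8.47% of all clusters, and 1 was called, against 1.09% of all: Slc6a20a, an amino acid transporter gene that overlaps the annotated start of Ccr9 on the other strand (190 and 273 normalized counts, adjusted p = 0.0175). The receptor genes with an unadjusted p under 0.05 were Cxcr6, carried by resident T cells (211 and 287, adjusted p = 0.108), Ccr1 of myeloid cells (555 and 699, adjusted p = 0.0978), Ccr3 of eosinophils (380 and 501, adjusted p = 0.0852), Ccr2 of monocytes (2565 and 3232, adjusted p = 0.235) and Xcr1 itself. The widely expressed genes Lars2, Limd1, Sacm1l and Lztfl1 had ratios of the deposited means between 1.02 and 1.05. The genes of this stretch share their position, and no test of the stretch as a whole was run.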
